A study of Mus musculus with 4 samples.

Results

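Reads of Ring1b, the catalytic subunit of Polycomb repressive complex 1, were called enriched in 2958 separate regions of the mouse embryonic stem cell genome. Each overlapped a call for trimethylated lysine 20 of histone H4 (H4K20me3), and in none did REST or MCAF1 pass the calling threshold. These 2958 members were taken from 10580 Ring1b regions. A Ring1b region was kept if it overlapped at least 1 of 9463 H4K20me3 regions, overlapped no REST and no MCAF1 region, and had no other Ring1b region within 10 kb. The members were thus chosen by the read numbers of all 4 libraries, and the levels below describe them without a test.

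The V6.5 cell line used, which has a mixed C57BL/6-129 background, was cultured on irradiated mouse embryonic fibroblasts. The cells spent 2 passages on gelatin without these feeders before the Ring1b, MCAF1 and H4K20me3 experiments and 1 passage before the REST experiment. Each antibody gave 1 library without replicate, no treatment is named, and all share the line, the shearing (500 bp on average) and 18 rounds of amplification; antibody and library cannot be told apart. No input library was analysed here, and the data hold no expression values with which the cell type could be checked. Reads with 1 reported location, counted once per position and strand, numbered 3083311 in the Ring1b library and 7782972 in the H4K20me3 library. The REST library held 3129369 and the MCAF1 library 11023569.

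Ring1b attaches ubiquitin to histone H2A, and in embryonic stem cells the complex is best known at CpG-rich promoters of developmental regulators that are silent or poised. H4K20me3 is laid down by dedicated lysine methyltransferases and is best known from compact chromatin, such as pericentromeric repeats and retroelements. REST is a zinc-finger repressor of neuronal genes, and MCAF1 (ATF7IP) is a cofactor of the histone H3 methyltransferase SETDB1.

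A 1-kb window was called when its read number was improbable under a Poisson distribution (p at most 1e-09) and at least 5 times background, where background was the larger of the genome mean and the mean over the surrounding 1 Mb. Ring1b calls took 0.625% and H4K20me3 calls 0.396% of all covered windows, REST calls 0.1% and MCAF1 calls 0.0726%. At the genome mean a call needed 14 Ring1b reads (10.4-fold), 20 H4K20me3 reads (5.91-fold), 14 REST reads (10.3-fold) or 24 MCAF1 reads (5.01-fold). A region at the genome mean could thus hold up to 13 REST reads in a window without a REST call. Fold below divides the reads in the highest window by the background there, and read density is the number of reads per kb over the genome mean of the same library. Intervals are exact 95% intervals and cover counting error only, because each antibody has 1 library. They also treat reads as independent molecules, which amplified reads need not be.

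Isolated Ring1b regions overlapped H4K20me3 more often than those with a Ring1b neighbour. Of all Ring1b regions 45.9% overlapped an H4K20me3 region, 10.7% a REST region and 11.1% a MCAF1 region, and 53.5% of H4K20me3 regions overlapped Ring1b. There were 8062 Ring1b regions with no other within 10 kb, and 48.0% of them overlapped H4K20me3 (46.9% to 49.1%), against 38.9% (37.0% to 40.9%) of the 2518 with a neighbour. Of the isolated regions, 6444 carried no REST and no MCAF1 region, and the 2958 members made up 45.9% of them (44.7% to 47.1%). Among the 2115 regions free of REST and MCAF1 that did have another Ring1b region within 10 kb, 37.0% overlapped H4K20me3 (35.0% to 39.1%). A further 915 isolated regions overlapped H4K20me3 together with REST or MCAF1, and 3486 isolated regions had no other call.

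The share depended on background and depth. Background for H4K20me3 at the members had a median of 1.27 times the genome mean, against 1.58 times at the 3486 isolated regions without another call, so the latter needed more H4K20me3 reads to pass. With the genome mean alone as background for every library, 63.0% of isolated regions free of REST and MCAF1 overlapped H4K20me3. With every library thinned to the depth of the Ring1b library it was 18.5%, and 1308 members were left. Which isolated regions counted as shared therefore changed with the background and with depth. The 783 regions left out for a Ring1b neighbour within 10 kb had a median density of 17.2 for Ring1b and 6.70 for H4K20me3.

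In the members Ring1b and H4K20me3 reads were densest around the Ring1b maximum, and both fell steeply within 2 kb. Ring1b reads were 27.5 times the genome mean within 500 bp of the Ring1b maximum (27.3 to 27.6), 11.5 times at 500 to 1000 bp, 5.52 times at 1 to 2 kb and 2.08 times at 2 to 5 kb. H4K20me3 reads were at 9.45 times (9.39 to 9.51), 4.63, 2.25 and 1.41 times over the same distances. Both thus dropped by more than a factor of 2 from the first zone to the next, and at 5 to 10 kb Ring1b was at 1.21 times and H4K20me3 at 1.28 times. Beyond 2 kb H4K20me3 was thus close to its outer level. In equal groups of 986 members with low, middle and high Ring1b fold, Ring1b at 2 to 5 kb was at 1.29, 1.13 and 3.81 times. The mean H4K20me3 profile was 1200 bp wide at mid-height and the Ring1b profile 800 bp, with the Ring1b profile sharpened by the choice of its own maximum as the centre.

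**Figure D1:**
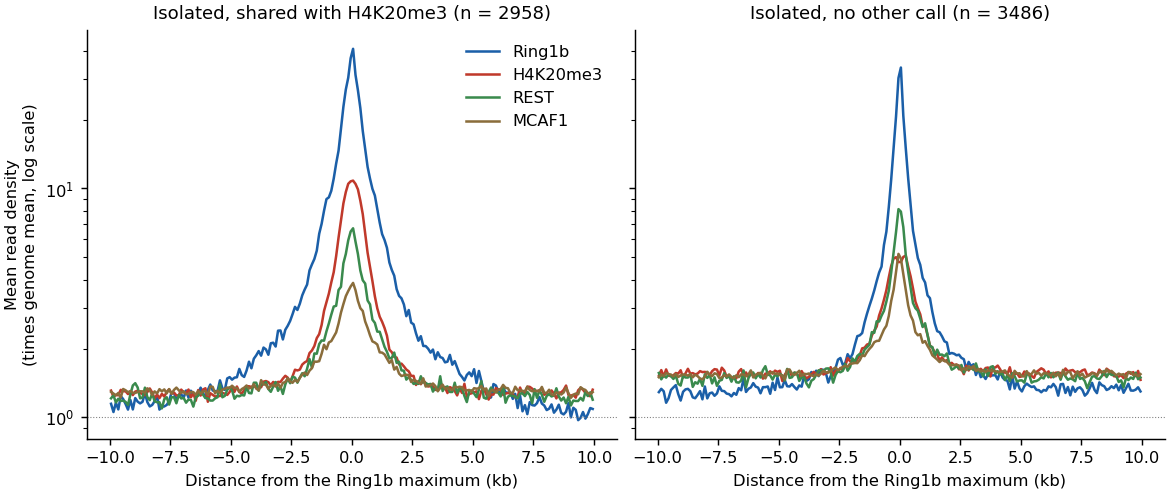
Mean read density (times genome mean, log scale) of the 4 libraries in bins of 100 bp against the distance from the Ring1b maximum, for the 2958 isolated regions shared with H4K20me3 (left) and the 3486 isolated regions without another call (right); lines are means over regions. Within 500 bp on the left H4K20me3 is at 9.45 times, above REST (5.21) and MCAF1 (3.33). Within 500 bp on the right it is at 4.70 times, below REST (5.56) and above MCAF1 (3.78). Only in central bins on the right is it below both (4.77 against 8.12 for REST and 5.18 for MCAF1 in the bin 50 bp left of the maximum).

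REST and MCAF1 reads were enriched at the members too, below their calling thresholds. Within 500 bp of the Ring1b maximum REST was at 5.21 times the genome mean (5.14 to 5.28) and MCAF1 at 3.33 times (3.30 to 3.36), falling to 1.24 and 1.302 times at 5 to 10 kb. Per member, REST density had a median of 4.41 and was at least 2 in 2708 members (91.6%, 90.5% to 92.5%). MCAF1 density had a median of 2.92 and was at least 2 in 2437 (82.4%, 81.0% to 83.7%). Of all Ring1b regions, which include those with a REST or MCAF1 call, 91.6% reached this for REST and 86.0% for MCAF1. REST had 0 reads in the highest Ring1b window of 18 members (0.61%, against 0.68% of all Ring1b regions). MCAF1 had at least 1 read in all 2958, from a deeper library (4.79 reads per covered window on average, against 1.36 for REST). A window p of at most 1e-06 was reached by REST in 342 members (11.6%) and by MCAF1 in 545 (18.4%). Over all Ring1b regions these shares were 19.35% and 29.2%. "No REST or MCAF1 region" therefore describes a level under a threshold and not an absence of reads.

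The isolated regions without another call were close to the members in their median REST and MCAF1 density, lower in H4K20me3, which the rule fixes, and lower in Ring1b at the upper end. Their median Ring1b density was 13.4 against 14.9 in the members, and the 90th percentiles were 17.9 and 30.9. Over all their bases together it was 16.4 (16.3 to 16.5) against 25.1 (24.97 to 25.2), and the median Ring1b fold was 10.4 against 14.7. Median REST density was 4.90 against 4.41, and median MCAF1 density 3.34 against 2.92. H4K20me3 had a median density of 4.14 there, against 7.22 in the members, and it was at least 2 times the genome mean in 3172 of the 3486 (91.0%). In 924 of them (26.5%) the H4K20me3 read number of the highest Ring1b window had a p of at most 1e-06. These values give no test of a difference, since 1 library stands behind each of them.

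The order of the libraries within a region rests on values that the rule used and is given as a description. H4K20me3 density was above both REST and MCAF1 density in 2603 members (88.0%, 86.8% to 89.1%), in 1225 isolated regions without another call (35.1%, 33.6% to 36.8%) and in 53.2% of all Ring1b regions. REST density exceeded H4K20me3 density in 354 members (11.97%) and in 2044 isolated regions without another call (58.6%). Since H4K20me3 was called in every member and in none of the regions without another call, with REST and MCAF1 under their thresholds in both, nothing is read from this contrast. On the other side stood 3973 H4K20me3 regions without any other call, where median density was 7.68 for H4K20me3, 2.98 for Ring1b, 2.45 for REST and 2.503 for MCAF1. These densities are over H4K20me3 regions, and those of the members over Ring1b regions. The gap in Ring1b is fixed by the choice of both sets.

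**Figure D2:**
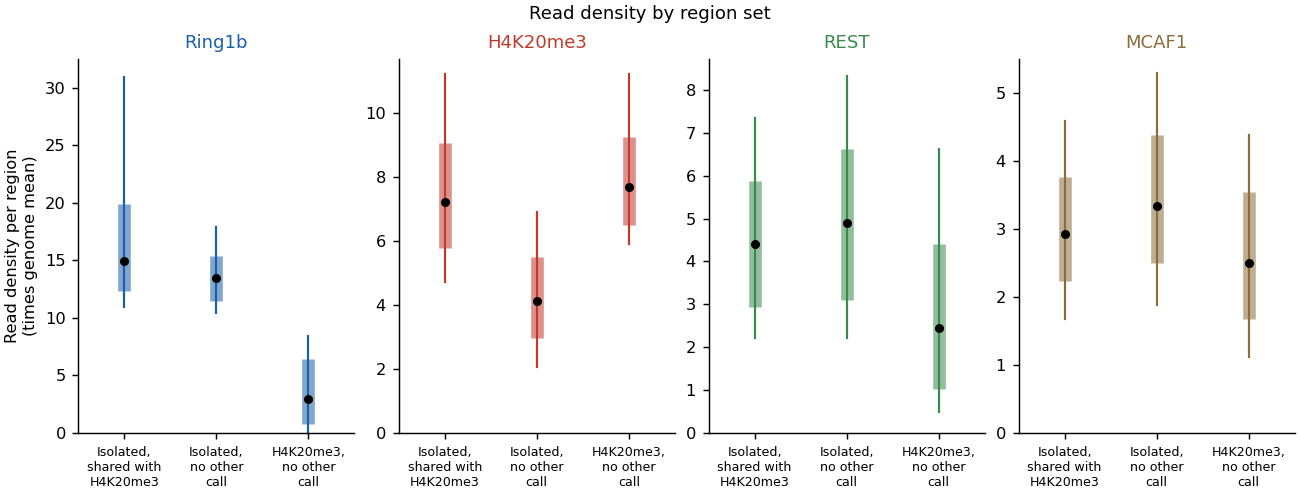
Read density per region (times genome mean) of each library in the 2958 isolated regions shared with H4K20me3, the 3486 isolated Ring1b regions without another call and the 3973 H4K20me3 regions without another call. Points are medians, thick bars the 25th to 75th and thin bars the 10th to 90th percentiles; H4K20me3 medians are 7.22, 4.14 and 7.68.

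Most members were narrow, with a tail of wide ones. Median width was 1500 bp; 644 members were 1000 bp wide, 1028 were 1500 bp, 441 were 2000 bp, 304 were 2500 bp, 191 were 3000 bp and 350 (11.8%, 10.7% to 13.1%) were wider, up to 22000 bp. Of all Ring1b regions 8.41% were wider than 3000 bp, and of the isolated regions without another call 64 (1.84%, 1.42% to 2.34%). Ring1b fold ranged from 5.04 to 133 with a median of 14.7, and 331 members (11.2%) reached at least 40-fold. The share was 6.46% over all Ring1b regions and 1.06% (37 regions) in those without another call. A wider region has more windows in which to meet an H4K20me3 call, and width rose with Ring1b fold. The rule thus bears on the contrasts in width and in fold, and nothing is read from them. H4K20me3 fold covered a shorter range, from 5 to 23.6 with a median of 7.35.

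Members with a higher Ring1b fold had a higher H4K20me3 fold over local background, but not steadily more H4K20me3 reads. In 3 equal groups of 986 members ordered by Ring1b fold, with medians of 10.04, 14.7 and 31.3, H4K20me3 fold had medians of 6.60, 7.20 and 8.57. H4K20me3 reads 5 to 10 kb away fell over the same groups, from 1.41 to 1.23 and 1.19 times the genome mean. The Spearman correlation of their densities over 2958 members was -0.04, while that of H4K20me3 with REST was 0.36, of H4K20me3 with MCAF1 0.35 and of REST with MCAF1 0.52. Ring1b was inversely related to REST (-0.24) and MCAF1 (-0.20). These are descriptions: the points share libraries, region widths and base composition, and the calling thresholds cut the range of each library. In the isolated regions without another call, Ring1b and H4K20me3 had a correlation of 0.30 and Ring1b and REST of 0.15.

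**Figure D3:**
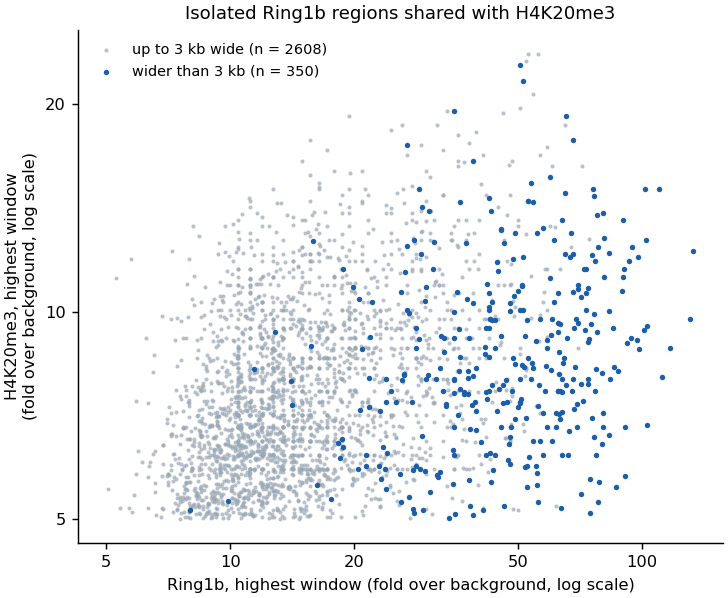
Fold over background of the highest Ring1b window (x, log scale) against that of the highest window of the overlapping H4K20me3 region (y, log scale), 1 point per member; blue points are the 350 members wider than 3 kb. Ring1b folds spread from 5.04 to 133 and H4K20me3 folds from 5 to 23.6; wide members lie to the right, with a median H4K20me3 fold of 8.24 against 7.16 in the others.

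The inverse relation with REST and MCAF1 was visible when members were ordered by Ring1b fold. In the 986 members with the lowest fold (median 10.04) the median density was 8.27 for H4K20me3, 5.39 for REST and 3.44 for MCAF1. Among the next 986 (median fold 14.7) these were 7.09, 4.70 and 2.92. In the 986 with the highest fold (median 31.3) they were 6.42, 3.36 and 2.42. Ring1b density went the other way, at 12.7, 13.4 and 24.1. Region width rose with fold, from a median of 1000 to 3000 bp, and a density averaged over a wide region is lower than at its peak. Within 500 bp of the Ring1b maximum, where width plays no part, H4K20me3 was at 9.18 (9.07 to 9.28), 9.03 (8.93 to 9.13) and 10.1 times (10.03 to 10.3) in the 3 groups. REST there was at 5.91 (5.78 to 6.04), 5.46 (5.33 to 5.58) and 4.27 times (4.16 to 4.38), and MCAF1 at 3.69 (3.63 to 3.74), 3.42 (3.37 to 3.47) and 2.88 times (2.83 to 2.93). The surroundings declined as well: at 5 to 10 kb REST was at 1.39, 1.19 and 1.14 times and MCAF1 at 1.45, 1.27 and 1.19 times. Between these distances REST did not fall steadily over the groups. It was at 3.19, 2.91 and 3.08 times at 500 to 1000 bp and at 1.965, 1.79 and 2.12 times at 1 to 2 kb. MCAF1 was at 2.41, 2.29 and 2.23 times at 500 to 1000 bp and at 1.87, 1.70 and 1.76 times at 1 to 2 kb.

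Widening of Ring1b was not matched by H4K20me3. In members of 1000 bp the overlapping H4K20me3 regions had a median width of 1500 bp, and in members wider than 3000 bp, with a median of 4000 bp, the H4K20me3 regions had a median of 2000 bp. Median Ring1b density rose from 12.7 to 35.7 between these classes while H4K20me3 density fell from 8.57 to 5.87. H4K20me3 was narrower than Ring1b in 1514 members, equally wide in 920 and wider in 524. The H4K20me3 region covered all of the Ring1b region in 1077 members (36.4%). In 103 members (3.48%) more than 1 H4K20me3 region fell on the same Ring1b region, and 88 of these were wider than 3000 bp.

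**Figure D4:**
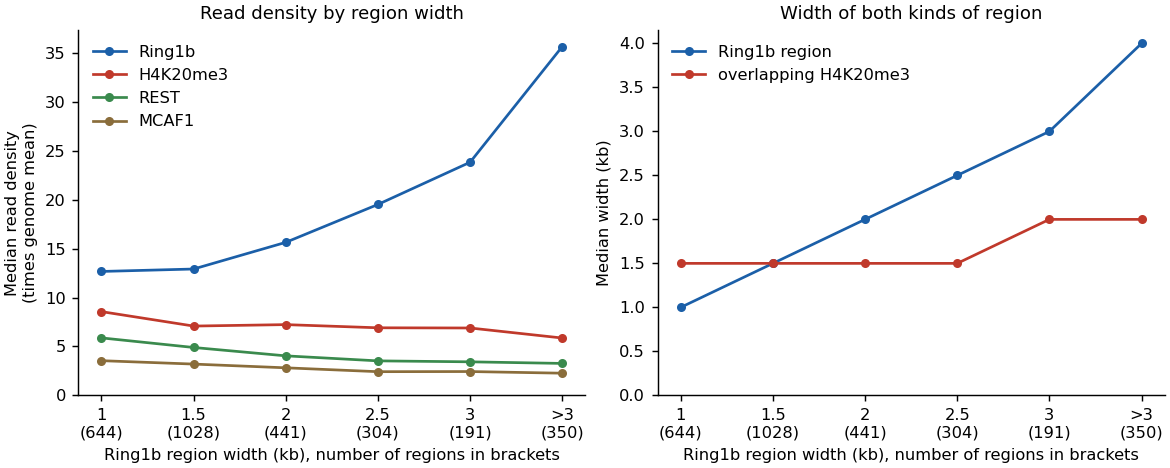
Left, median read density (times genome mean) of the 4 libraries by Ring1b region width; right, median width (kb) of the Ring1b regions and of the overlapping H4K20me3 regions; the number of regions stands in brackets. Ring1b density rises from 12.7 to 35.7 and H4K20me3 width only from 1.5 to 2 kb.

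The maxima of Ring1b and H4K20me3 nearly coincided in most members. The highest Ring1b and the highest H4K20me3 window were the same in 1666 members (56.3%, 54.5% to 58.1%), 500 bp apart in 1026 (34.7%), 1000 bp in 170, 1500 bp in 44 and farther in 52. Windows advance by 500 bp, so this is the finest distance seen, and the overlap that the rule asks for keeps the maxima close in narrow regions. Of the 52 members with distant maxima, 50 were wider than 3000 bp. In the 61 members wider than 6000 bp the median distance was 1500 bp, and in 20 the H4K20me3 fold at the Ring1b maximum was under 5. The largest overlap with a single H4K20me3 region took a median of 18.8% of the Ring1b region. As 33 of the 61 overlapped more than 1 H4K20me3 region, the total share covered was larger in these. The H4K20me3 maximum lay nearer to an edge than to the middle in 49.2% of these 61, and the Ring1b maximum in 24.6%.

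Single regions show the range. The region where the smaller of both folds was highest lay at chr1:17081501-17084000 (mm8), 430000 bp from the next Ring1b region. Its highest window held 71 Ring1b reads, 53.0-fold (41.4 to 66.8), and 80 H4K20me3 reads, 23.6-fold (18.7 to 29.4), with 6 REST reads (4.41-fold, 1.62 to 9.60) and 19 MCAF1 reads (3.96-fold, 2.39 to 6.19). In the 5 kb on either side H4K20me3 was at 0.916 times the genome mean (31 reads) and Ring1b at 2.31 times (1.57 to 3.28). Within this flank a weaker rise held 11 H4K20me3 reads (3.25 times) and 13 Ring1b reads (9.70 times) in 1 window, without a call.

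Regions of similar form lay on other chromosomes. On chromosome 12 at 52514001–52516500, 75 Ring1b reads (55.9-fold) and 80 H4K20me3 reads (23.6-fold) stood against 6 MCAF1 reads (1.201-fold, 0.441 to 2.62) and 12 REST reads (8.48-fold, 4.38 to 14.8). On chromosome 3 at 62426001–62429500 there were 69 Ring1b reads (51.5-fold), 73 H4K20me3 reads (21.6-fold), 5 REST reads (3.67-fold) and 10 MCAF1 reads (2.09-fold). On chromosome 9 at 85122001–85125500 there were 47 Ring1b reads (35.1-fold), 66 H4K20me3 reads (19.5-fold), 8 REST reads (5.88-fold) and 7 MCAF1 reads (1.46-fold). The 10 members with the highest H4K20me3 fold were 2500 to 3500 bp wide and shared their highest window with Ring1b or had it 500 bp away.

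The members with the highest Ring1b fold differed widely in H4K20me3. At chr1:130417501-130421000 the highest window held 182 Ring1b reads (133-fold, 115 to 154), 44 H4K20me3 reads (12.2-fold, 8.88 to 16.4), 6 REST reads (4.41-fold) and 24 MCAF1 reads (4.73-fold, 3.03 to 7.04), the last of these just under the 5-fold that a call requires. On chromosome 3 at 45471501–45479000, 176 Ring1b reads (131-fold) came with 32 H4K20me3 reads (9.45-fold), 1 REST read (0.735-fold, 0.0186 to 4.09) and 8 MCAF1 reads (1.67-fold). On chromosome 13 at 72422001–72431000 the window with 194 Ring1b reads (103-fold) held 13 H4K20me3 reads (3.57-fold, 1.90 to 6.10), and the H4K20me3 maximum of 6.86-fold (4.44 to 10.1) lay 3000 bp away. In 418 of the 2608 members up to 3000 bp wide, and in 73 of the 350 wider ones, H4K20me3 was likewise under 5-fold at the Ring1b maximum and passed the threshold elsewhere in the overlapping region.

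The widest members were broad Ring1b blocks with spots of H4K20me3. At chr2:71326501-71348500 Ring1b density was 86.7 over 22000 bp (2558 reads), against 4.15 for H4K20me3 (309 reads), 2.31 for REST and 2.17 for MCAF1. The highest Ring1b window held 239 reads (52.2-fold) and 25 H4K20me3 reads, and the H4K20me3 maximum, with 45 reads (9.22-fold, 6.73 to 12.3), lay 16500 bp away. Chromosome 17 at 85515001–85535500 had 218 Ring1b reads (38.9-fold) with 13 H4K20me3 reads (2.76-fold, 1.47 to 4.72) in the highest window and the H4K20me3 maximum 15000 bp away. Such blocks count as isolated because their overlapping calls were joined into 1 region.

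**Figure D5:**
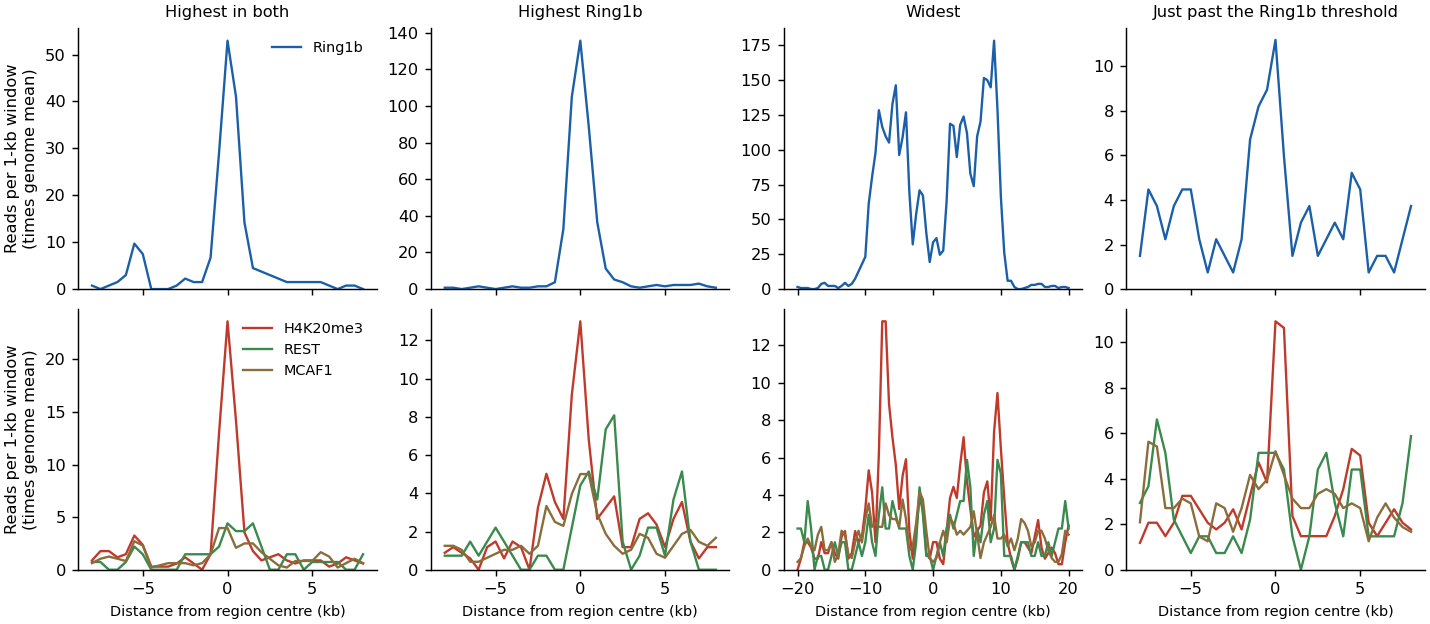
Reads per 1-kb window (times genome mean) against the distance from the region centre (kb) in 4 members, Ring1b in the upper and the other libraries in the lower row: the region where the smaller fold is highest, the highest Ring1b region, the widest region and a region just past the Ring1b threshold. H4K20me3 forms a central peak of 80 reads in the first and lies in separate spots, the highest of 45 reads, in the third.

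Regions on both sides of the limits show where the rule cut. The 3 members closest to the Ring1b limit held 15, 16 and 17 Ring1b reads in their highest window (p of 9.98e-10, 9.96e-10 and 9.86e-10), at 8.31-, 7.60- and 7.02-fold. The first of them, on chromosome 15 at 25725501–25726500, held 37 H4K20me3, 7 REST and 25 MCAF1 reads in that window. The 3 closest to the H4K20me3 limit reached 21, 20 and 22 H4K20me3 reads (p of 9.83e-10, 8.93e-10 and 8.80e-10). Just outside, 3 isolated regions held 55, 51 and 45 H4K20me3 reads at 4.86-, 4.67- and 4.99-fold over a high local background and so fell short of 5-fold. A region with that many reads stays under 5-fold only over a high background, so nothing is read from the contrast with the members. The nearest Ring1b neighbour of a member was 10500 bp away, and 3 H4K20me3-sharing regions were left out with a neighbour at 10000 bp. The 3 members highest in REST held 13 REST reads each (9.55-fold), 1 read under the number for a call.

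Members were spread over the chromosomes with a median of 72500 bp to the next Ring1b region (34000 to 158000 bp from the 25th to the 75th percentile, 3993000 bp at most). The member farthest from another Ring1b region lay on chromosome 6 at 77171501–77175500, with 88 Ring1b reads (65.6-fold) and 31 H4K20me3 reads (9.16-fold). The nearest REST region was a median of 246250 bp away and the nearest MCAF1 region 369500 bp. Only 137 members (4.63%) had an additional H4K20me3 region within 10 kb, against 15.6% of all Ring1b regions. The rule bears on this share, because it removes Ring1b neighbours and 53.5% of H4K20me3 regions overlap Ring1b. Any H4K20me3 region within 10 kb was found beside 226 (6.48%) of the isolated regions without another call.

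Among the autosomes, but not with the X chromosome included, density varied less for members than for isolated regions without another call. On the autosomes members numbered between 1.003 per Mb on chromosome 14 (0.821 to 1.21) and 1.72 on chromosome 19 (1.39 to 2.11), and isolated regions without another call between 1.08 and 2.64, the latter on chromosome 11. Members were 36.5% of the Ring1b regions on chromosome 1 and 22.1% on chromosome 11, where reads of every library were dense (H4K20me3 1.35 times the genome mean, against 0.897 times on chromosome 1). The X chromosome had 36 members, 0.316 per Mb (0.221 to 0.437), with Ring1b reads at 0.387 and H4K20me3 reads at 0.324 times the genome mean. Isolated regions without another call numbered 0.6925 per Mb there. The background was never set under the genome mean, so a region on the X chromosome needed more enrichment over its surroundings, and the part of read density in these counts was not tested.

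Strand balance and repeated positions, which the calls did not use, were near the library values for Ring1b. Plus-strand reads made up 49.9% of Ring1b (49.6% to 50.1%) and of H4K20me3 reads (49.6% to 50.1%) in members. Repeated positions, which had been removed before calling, took 6.81% of Ring1b reads in members (6.70% to 6.91%) and 6.31% over the library. For H4K20me3 they took 3.26% (3.17% to 3.35%) and 2.06%. Of 208096 Ring1b read ends in members, 3417 coincided with an H4K20me3 read end of the same strand, where ends displaced by 1 to 10 bp gave 3123 to 3308 coincidences. For MCAF1 the numbers were 1747 and 1477 to 1694, and for REST 696 and 653 to 739. Exact coincidences with H4K20me3 and MCAF1 lay slightly above the range of displaced ends and those with REST inside it. Minus-strand ends were placed with the seed length (26 bases for Ring1b and REST, 36 for H4K20me3 and MCAF1) taken as read length. Read length was not checked, so minus-strand ends may be misplaced between libraries with different seeds.

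A minority of the members overlapped regions that met a stricter rule. When Ring1b and H4K20me3 windows also had to pass against the pooled REST and MCAF1 reads of the same window, scaled to depth, 523 regions met the rule, and 485 of the 2958 members (16.4%, 15.1% to 17.8%) overlapped these. In that subset median density was 21.3 (Ring1b), 7.60 (H4K20me3), 2.94 (REST) and 2.09 (MCAF1). In the other 2473 it was 14.2, 7.09, 4.65 and 3.06. The subset was wider (median 2500 against 1500 bp) and held all 10 members with the highest H4K20me3 fold and 4 of the 10 with the highest Ring1b fold, but none of the 3 nearest to either threshold. Its lower REST and MCAF1 and higher Ring1b values follow from the way it was chosen. The other 83.6% of members overlapped no region that met the whole rule under this background, and which step removed them was not tested.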

How the data were processed

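The deposited files hold signed read positions, 1 entry per alignment, with no normalisation; this is another unit than counts per feature, and the authors made it with Bowtie on the mm8 build, per the file headers. The headers record at most 2 locations a read, 2 seed mismatches, a mismatch quality sum of 70 and seeds of 26 bases (Ring1b, REST) or 36 bases (MCAF1, H4K20me3), per the file headers; no Bowtie version was found in these sources. Minus-strand positions reach 3000000, the first sequenced base, so a position was read as the leftmost base counted from 0; printed coordinates count from 1. Reads with 1 location were kept once per position and strand and moved 75 bp in the 3′ direction. Windows of 1000 bp every 500 bp were called as described above, and overlapping calls were joined; mitochondrial reads were left out. The caller was tested on simulated data.

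The members, lists and named regions were chosen with earlier results of these data known. Named regions are the 10 highest members by Ring1b and by H4K20me3 fold, the 5 highest by the smaller fold, the 5 widest, and 3 each at the extremes of spacing, at each threshold and of uncalled REST and MCAF1; the text gives examples. Genes and sequences at these positions were not analysed here, since the reference tables used here belong to another build. Intervals are exact 95% intervals (Poisson for reads, Clopper-Pearson for shares). Alternatives covered thresholds, shift, repeated reads, background, isolation, overlap and depth. Python 3.11.15, numpy 2.4.6, scipy 1.17.1, pandas 2.3.3 and matplotlib 3.10.9 were used.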

Additional observations from a re-analysis of the deposited data

Results flagged for a closer look

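Reads with 2 reported locations entered no call, and the members held some of them. Their alignments in members numbered 5563 in the Ring1b and 1317 in the H4K20me3 library, 1409 in the REST and 758 in the MCAF1 library. They were 2.60% of all distinct alignments there for Ring1b (2.53% to 2.67%), against 10.8% over the library. For H4K20me3 the values were 0.876% and 6.72%, for REST 3.86% and 12.5%, and for MCAF1 0.900% and 6.26%. In the isolated regions without another call the shares were 3.14% (Ring1b), 2.07% (H4K20me3), 4.68% (REST) and 1.53% (MCAF1). All these regions were called on reads with 1 location, which bears on the shares. No control library was analysed here.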

How the results depend on the processing

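No paired analysis was possible because each antibody has 1 library. Under 15 other settings and 1 chosen after seeing the data, the median distance of the highest windows was 0 bp. The latter placed minus-strand reads by their 5′ base, with the seed length taken as read length. The number of members left the range of 1.5 times the main value of 2958 in 3 settings. It was 1305 at a fold minimum of 8, 1308 after thinning and 523 with the pooled REST and MCAF1 reads as second background. Of the 2958 members, 1130, 1154 and 485 overlapped a member under these. Membership also changed where the number stayed in that range. At 1e-06, 2257 members (76.3%) overlapped a member, at 1e-12 1946 (65.8%) and with the genome mean alone 2241 (75.8%). Under each remaining setting 82.9% or more did. The share of isolated regions overlapping H4K20me3 was 52.5% and 19.7% at a fold minimum of 3 and 8, 39.5% and 44.2% at thresholds of 1e-06 and 1e-12, 63.0% with the genome mean alone, 47.5% with isolation over 20 kb, 42.9% with an overlap of 1000 bp, 18.5% after thinning and 19.2% against pooled reads. Median Ring1b density was 11.9 and 17.5 at 1e-06 and 1e-12, 16.4 at a fold minimum of 8, 14.2 with all reads, 12.9 with the genome mean alone, 15.4 after thinning and 23.3 against pooled reads. Median H4K20me3 density under these was 6.50, 7.98, 8.08 (fold minimum), 6.50 (genome mean), 8.63 (thinning) and 8.08 (pooled), and 7.37 with an overlap of 1000 bp. Median REST density was 3.67 at 1e-06, 4.12 at a fold minimum of 8, 4.17 with all reads, 4.12 with the genome mean, 3.92 with REST and MCAF1 called at 1e-06, 4.20 after thinning and 2.94 against pooled reads. Median MCAF1 density was 2.71 at 1e-06, 2.81 with all reads, 2.71 with the genome mean, 2.75 with REST and MCAF1 called at 1e-06, 2.80 after thinning and 1.95 against pooled reads. The cause was not tested, except that thinning and stricter limits leave fewer windows to call. Depth limits the REST calls: a member could hold 13 REST reads in a window and have no call.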
